A study of Mus musculus with 6 samples.

Results

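The group XIV C-type lectins are a family of membrane glycoproteins with 4 members in the mouse, encoded by *Cd248* (endosialin), *Cd93*, *Thbd* (thrombomodulin) and *Clec14a*. The members were chosen by name and matched by gene symbol in the NCBIM37 annotation, which found all 4 of them among the 33460 genes of the files. All 4 were also among the 14801 genes that reached an FPKM of 1 or more in 3 or more samples and were therefore tested. FPKM is the number of fragments scaled to the length of the transcripts and to the size of the library. The samples came from brains of *NG2-DsRed/Pdgfrb-eGFP* mice at postnatal day 6, in which eGFP is driven by the *Pdgfrb* promoter and DsRed by the *NG2* promoter, so that the controls carried both reporters as well. The 3 mural cell samples held FACS sorted double positive cells. In these mice capillary pericytes carry both reporters. The authors conclude that the double positive cells also include mural cells of arterioles and venules. Some eGFP positive cells of those vessels showed little or no DsRed. The 3 samples of microvascular fragments were isolated with anti-CD31 beads and contained both endothelial and mural cells. The material came from 3 animals, and each brain was divided between the 2 preparations. No further treatment was given.

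Proteins of this family share an extracellular C-type lectin-like domain at the N-terminus, EGF-like repeats, a stalk and a short cytoplasmic tail. CD93, thrombomodulin and CLEC14A are known mainly from endothelial cells, and CD93 is also found on myeloid cells. Endosialin is known from pericytes and fibroblasts and is widely used as a pericyte marker. Thrombomodulin binds thrombin and directs it to activate protein C, whereas CD93, CLEC14A and endosialin bind proteins of the extracellular matrix.

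Each gene has 1 annotated transcript. *Cd248* (ENSMUSG00000056481) (NCBIM37, chromosome 19, 5068078 to 5070637, plus strand) consists of 1 exon of 2560 bases, of which 2295 are coding. *Clec14a* (ENSMUSG00000045930, chromosome 12, 59365707 to 59370245, minus strand) and *Thbd* (ENSMUSG00000074743, chromosome 2, 148230207 to 148233924, minus strand) also have 1 exon each. *Cd93* (ENSMUSG00000027435, chromosome 2, 148262376 to 148269299, minus strand) has 2 exons and a transcript of 6677 bases, of which 4745 are noncoding. *Thbd* and *Cd93* are neighbours, with 28.5 kb between them. No gene of the files overlaps any of the 4. The transcripts shared no stretch of 50 bases with each other. *Cd93* shared 52 of its 6628 such stretches with transcripts of other protein-coding genes, and the other 3 members shared none.

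The labelled cell types were compared with marker lists. All 11 mural markers other than *Cd248* rose in the sorted cells (limma with Benjamini-Hochberg adjustment, adjusted p under 0.05, as in all calls below), with a median ratio of mean FPKM of 9.08. This was no independent check. The promoters of *Pdgfrb* and *Cspg4* (NG2) drive the reporters used for sorting, and the authors reported the enrichment of all but *Notch3* from the same data. Of 12 endothelial markers, 5 fell, and their median level in the sorted cells was still 72.8% of that in the fragments, with a summed FPKM of 1672 to 2144 against 2180 to 2574. All 10 markers of microglia and macrophages fell to a median level of 8.59%, and all 8 fibroblast markers rose, with a median ratio of 6.75. In the astrocyte list 0 of 6 genes were called, but mural cell sample 3 stood apart with a summed FPKM of 678, against 231 and 182 in mural cell samples 1 and 2 and 268 to 378 in fragments. Without mural cell sample 3 the log2 fold changes were 3.26 for *Cd248*, -0.22 for *Cd93*, 0.58 for *Thbd* and -1.20 for *Clec14a*, all on the same side of the threshold as with it. Of the oligodendrocyte progenitor list 1 of 5 rose, of the neuron list 1 of 5 fell, and of the erythroid and platelet list 2 of 6 fell. The progenitor gene that rose, *Pdgfra* (ratio 1.59), is also on the fibroblast list. Over all genes tested, 9.34% rose and 13.0% fell in the sorted cells, and the median log2 fold change was -0.12. In these bulk samples, fewer cells of a type and less RNA per cell cannot be told apart.

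*Cd248* was the member that rose most in mural cells. Its FPKM was 354, 344 and 325 in mural cell samples 1, 2 and 3, and 42.7, 35.2 and 29.6 in fragment samples 1, 2 and 3. The lowest mural cell value was thus far above the highest fragment value. The mean was 341 ± 15.03 (SD, n = 3) against 35.9 ± 6.60 (SD, n = 3), a ratio of 9.52, and the log2 fold change was 3.23 (standard error 0.15, 95% interval 2.88 to 3.57, adjusted p = 7.2e-05 from limma). For comparison, 6.43% of all genes tested rose more than 2-fold. The value in mural cells placed *Cd248* 102nd of the 14801 genes tested, against 2929th in fragments. Since a library's low FPKM values are whole multiples of the value of 1 fragment, the fragments behind a value could be recovered for these genes. The *Cd248* values rested on 604 to 1483 fragments in mural cells and on 325 to 461 in the microvascular samples.

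*Cd93*, by contrast, had a similar level in both groups. The FPKM was 172, 154 and 167 in mural cell samples 1 to 3 and 194, 181 and 195 in fragment samples 1 to 3. Every mural cell sample lay below every fragment sample, which held for 24.5% of all genes tested. The ratio was 0.866 and the log2 fold change -0.21 (standard error 0.10, adjusted p = 0.196 from limma), so that no difference was called. The 95% interval of the fold change ran from 0.733 to 1.02. *Cd93* had the most fragments of the family in every library, 744 to 1979 in mural cells and 4940 to 5889 in the microvascular samples, so that counting error was small. The summed FPKM of the microglia and macrophage markers, whose cell type is also known to express *Cd93*, was 145 to 180 in mural cells and 1578 to 1813 in fragments. That of the endothelial markers was 1672 to 2144 in mural cells and 2180 to 2574 in fragments. The part of either cell type in the *Cd93* values was not tested.

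*Thbd* was modestly higher in mural cells. The FPKM was 32.2, 30.9 and 29.9 in mural cell samples 1 to 3 and 22.8, 21.3 and 18.4 in fragment samples 1 to 3. The groups did not overlap, with all mural cell samples above all fragment samples, as for 16.5% of all genes tested. The ratio was 1.49 and the log2 fold change 0.56 (standard error 0.14, 95% interval 0.23 to 0.88, adjusted p = 0.027 from limma), so that *Thbd* passed the test but not the 2-fold limit. The call depended on single libraries. Without fragment sample 1, 2 or 3 the adjusted p was 0.071, 0.096 and 0.123, and without mural cell sample 1 it was 0.059, with ratios of 1.41 to 1.56. In mural cell samples 2 and 3 the values rested on 81 and 83 fragments, with 95% Poisson intervals of 64.3 to 101 and 66.1 to 103 fragments that cover counting error only.

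*Clec14a* fell in mural cells. The FPKM was 18.8, 13.9 and 24.9 in mural cell samples 1 to 3 and 36.3, 41.0 and 38.3 in fragment samples 1 to 3. The groups did not overlap, with all mural cell samples below all fragment samples, as for 24.5% of all genes tested. The mural cell samples were spread more widely than for any other member. Their coefficient of variation was 28.5%, against 3.64 to 5.56% for the other 3 genes. The ratio was 0.499 and the log2 fold change -1.001 (standard error 0.21, 95% interval -1.49 to -0.51, adjusted p = 0.014 from limma), which lies at the 2-fold limit that 10.1% of all genes passed in this direction. Without fragment sample 2 or 3 the adjusted p was 0.062 and 0.059. Mural cell sample 2 held 45 fragments of *Clec14a*, an FPKM with a 95% Poisson interval of 10.2 to 18.7, and sample 3 held 85, with an interval of 19.8 to 30.7. These intervals, which cover counting error only, did not overlap.

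Of the members, *Clec14a* was matched in the RefSeq table of promoter sequences, and *Cd248*, *Cd93* and *Thbd* were not. It is shown as the promoter of the family that the table held, and covers 250 bases before and 50 bases after the start of the gene, on the minus strand of GRCm38.p6 at chr12:58269209-58269508. Capitals mark GGAA or its complement TTCC, the core letters bound by ETS factors, which include the endothelial regulator ERG.
Clec14a: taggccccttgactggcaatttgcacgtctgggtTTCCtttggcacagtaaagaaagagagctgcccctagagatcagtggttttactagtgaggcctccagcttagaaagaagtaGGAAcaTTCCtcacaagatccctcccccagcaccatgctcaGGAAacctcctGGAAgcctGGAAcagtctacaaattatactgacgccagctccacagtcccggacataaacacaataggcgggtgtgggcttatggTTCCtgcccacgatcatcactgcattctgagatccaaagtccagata
The window held 7 such matches on both strands, and 8.02% of the 32851 windows of the table held at least as many, with a median of 3. CACCC, the core letters bound by KLF factors, was found 1 time on both strands, and 57.5% of the windows held it. The motif TATAAA was not found on either strand, and 13.6% of the windows held it. The GC content was 50.3%, against a median of 52.7%. These are matches of letters and not binding sites.

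**Figure D1:**
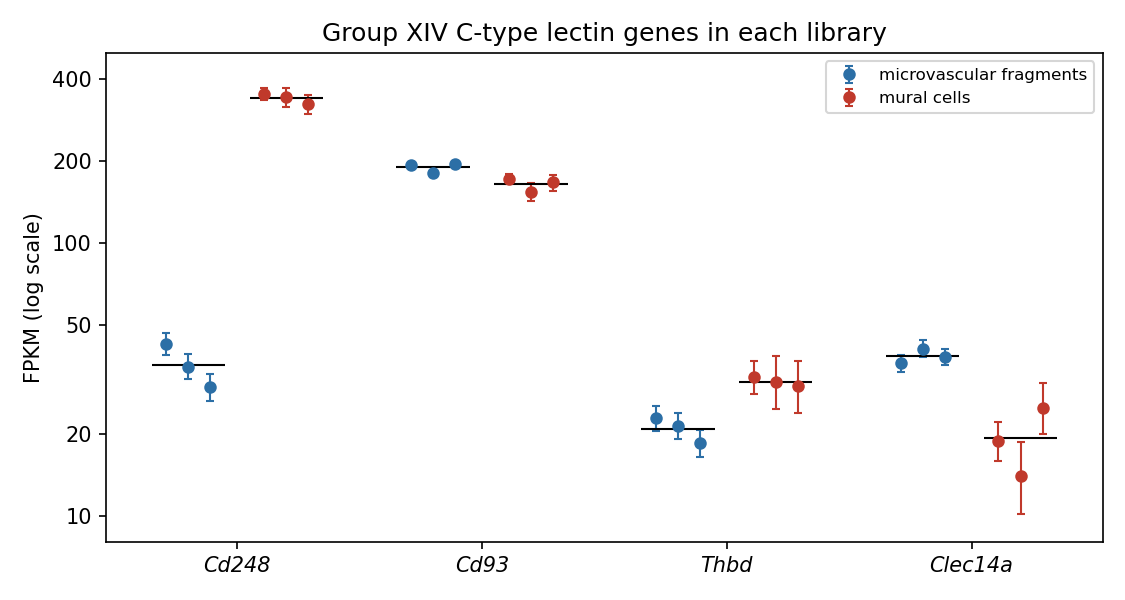
FPKM on a log scale of the 4 group XIV C-type lectin genes in each library, with mural cells in red and microvascular fragments in blue. Points are replicates 1 to 3 from left to right with 95% Poisson intervals of the recovered fragments, and lines are group means. *Cd248* rises from between 29.6 and 42.7 to between 325 and 354, whereas *Clec14a* lies at 13.9 to 24.9 in mural cells and 36.3 to 41.0 in fragments.

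The order of the levels differed between the groups. In the mural cell samples the order was *Cd248*, *Cd93*, *Thbd* and *Clec14a*, and no neighbours in this order overlapped. The part of endothelial cells in these levels was not tested. In fragments *Cd93* was first, followed by *Clec14a* and *Cd248*, whose samples overlapped, and by *Thbd*, whose samples lay below all others. Of the summed FPKM of the 4 genes, *Cd248* took 59.4 to 63.3% in mural cells and 10.5 to 14.4% in fragments. *Cd93* took 28.4 to 30.6% and 64.9 to 69.4%, respectively. The shares of *Thbd* were 5.47 to 5.69% and 6.53 to 7.70%, and those of *Clec14a* 2.56 to 4.55% and 12.3 to 14.7%.

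To ask whether the mural to fragment ratio of *Cd248* differed from those of its relatives, the genes were compared within each sample. The FPKM of *Cd248* was 2.06, 2.23 and 1.94 times that of *Cd93* in mural cell samples 1 to 3, and 0.220, 0.195 and 0.151 times in fragment samples 1 to 3. On the log2(FPKM + 1) scale, this difference between the genes changed by 3.44 between the groups, which corresponds to a 10.8-fold difference of the ratios. Relative to *Thbd* the difference was 2.67, or 6.37-fold. Relative to *Clec14a* it was 4.23, or 18.8-fold, and relative to the mean of the 3 relatives 3.45, or 10.9-fold. In each of these comparisons all 3 mural cell samples lay above all 3 fragment samples. The exact two-sided permutation test gave p = 0.1 for each, the smallest p that 3 samples against 3 allow, and an adjusted p of 0.16 over the 8 comparisons made in this way. The design could therefore not reach 0.05 with this test.

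Of the 3 ratios, that of *Cd248* to *Thbd* varied least among the mural cell samples. *Cd248* was 11.0, 11.1 and 10.8 times *Thbd* in mural cell samples 1 to 3 and 1.88, 1.65 and 1.61 times in fragment samples 1 to 3. The ratio of *Cd248* to *Clec14a* varied more within mural cells, with 18.8, 24.7 and 13.1.

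The members were then set beside the markers of the cell types from which they are known. *Cd248* moved like the mural markers. Its ratio was above 8 and below 3 of the 11 mural markers, which ranged from 6.47 (*Cspg4*, which encodes NG2) to 12.5 (*Acta2*, smooth muscle actin). Relative to the mean of the mural markers it differed by 0.15 on the log2 scale between the groups, with overlapping samples (exact two-sided permutation test, p = 0.4). The range of the fibroblast markers was 1.59 to 12.9, and the ratio of *Cd248* exceeded those of 6 of the 8. Since both lists rose, they do not separate the part of the 2 cell types in the *Cd248* value, which was not tested. *Col1a2*, *Col3a1* and *Ogn* of the fibroblast list are also in the authors' catalogue of mural cell-enriched genes, which drew partly on these data.

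The 3 relatives took different positions among the endothelial markers, whose ratios ran from 0.353 (*Ly6c1*) to 1.29 (*Esam*, an endothelial adhesion molecule). *Thbd* had a higher ratio than all 12 markers. Relative to their mean it was -2.82, -2.90 and -2.84 in fragment samples 1 to 3 and -2.03, -1.83 and -1.67 in mural cell samples 1 to 3 on the log2 scale. All mural cell samples thus lay above all fragment samples, by 1.01 on average, or 2.02-fold (p = 0.1 in the exact permutation test, again the smallest possible, adjusted p = 0.16). *Cd93* was above 9 of the 12 markers and differed from their mean by 0.25 between the groups, with overlapping samples (exact permutation test, p = 0.3). *Clec14a* was below 11 of the 12, with a difference of -0.55 and overlapping samples (exact permutation test, p = 0.3). *Pecam1* (the CD31 antigen) and *Cdh5* (VE-cadherin) had ratios of 0.629 and 0.627.

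**Figure D2:**
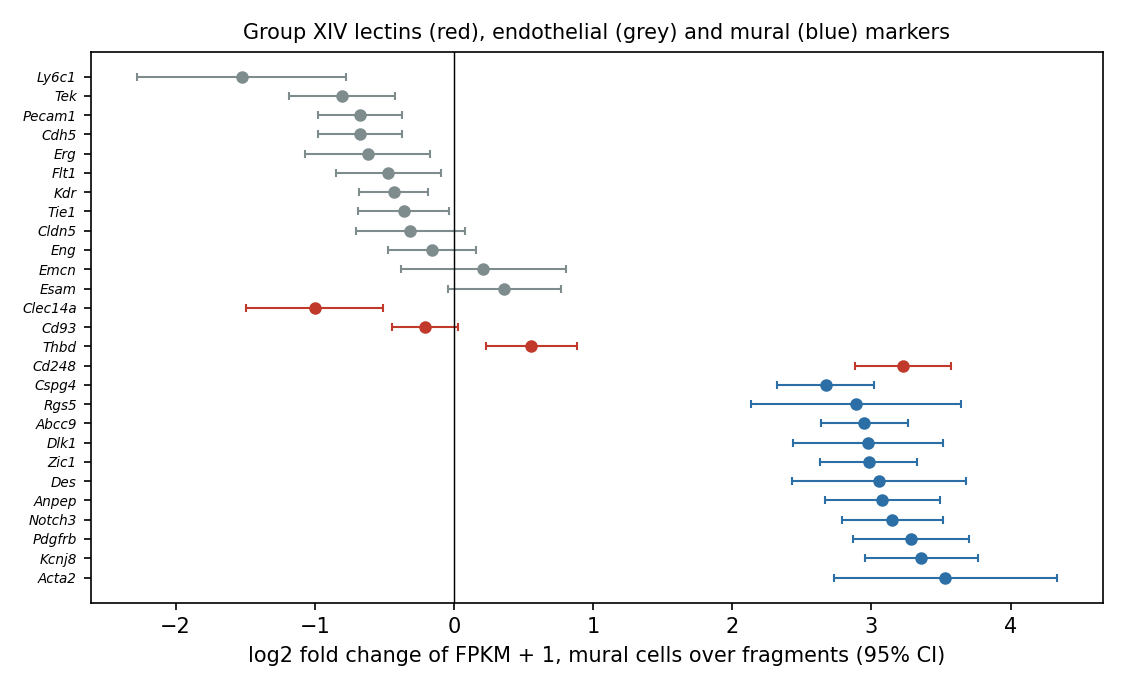
Log2 fold change of FPKM + 1 between mural cells and fragments, with 95% intervals from limma, for 12 endothelial markers (grey), the 4 group XIV lectins (red) and 11 mural markers (blue). *Cd248* at 3.23 lies among the mural markers, *Thbd* at 0.56 above all endothelial markers, and *Clec14a* at -1.001 below 11 of them.

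**Figure D3:**
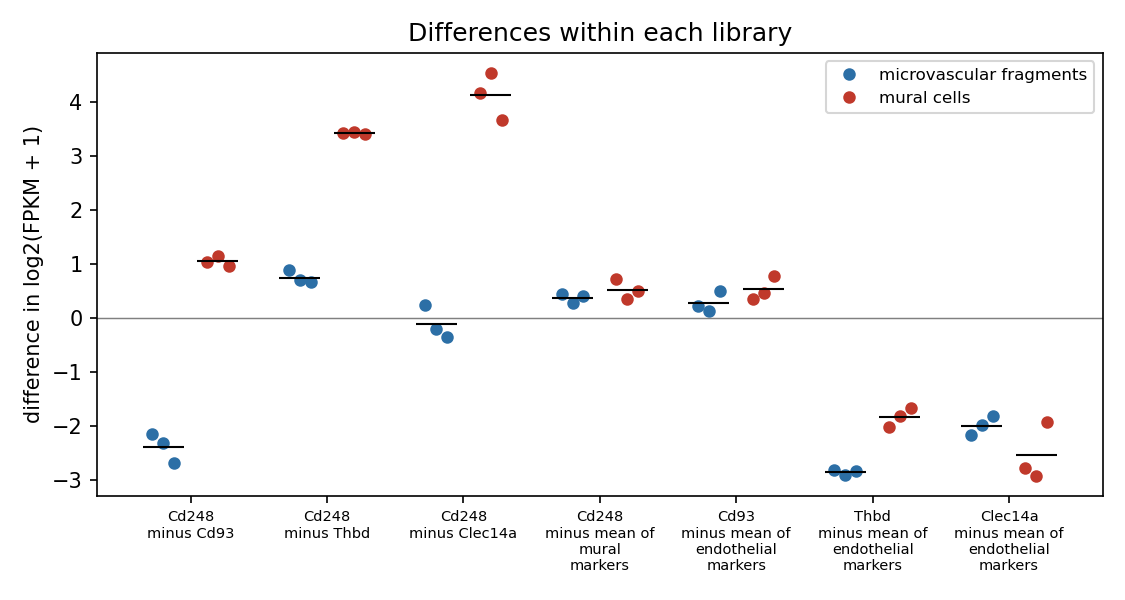
Differences in log2(FPKM + 1) within each library, for *Cd248* against each relative and for each member against the mean of its marker list. Points are libraries (red, mural cells; blue, fragments) and lines are group means. The groups are separate for the 3 comparisons of *Cd248* with its relatives and for *Thbd* against endothelial markers, and overlap for the other 3.

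The genes with the most similar profiles were searched among the 8508 other genes tested that had a mean FPKM of at least 10, by the root mean square difference of the centred log2(FPKM + 1) values over the 6 samples. The nearest gene to *Cd248* was *Pdgfrb*, the receptor gene whose promoter drives eGFP in these mice, with a root mean square difference of 0.076 and a ratio of 9.81. It was followed by *Anpep* (0.080), which encodes CD13, *Heyl* (0.095), a target of Notch signalling, *S1pr3* (0.096), a sphingosine-1-phosphate receptor, and *Pcolce* (0.098), an enhancer of procollagen processing. For *Thbd* the nearest genes included *Foxf2* (0.046), a forkhead transcription factor, *Prkcsh* (0.050), *Zfand3* (0.057) and *Cd81* (0.060), with ratios of 1.48 to 1.55. For *Cd93* they were *Rtn3* (0.030), *Acot7* (0.036), *Ptp4a2* (0.045), *Birc6* (0.049) and *Ddx6* (0.051), of which none was called (adjusted p of 0.152 to 0.528 from limma). For *Clec14a* they were *Sulf2* (0.064), which encodes a heparan sulfate sulfatase, *Mms19* (0.108), *Nfxl1* (0.120), *Akr1b10* (0.127) and *Safb2* (0.130). Differences between the groups dominate such profiles, and genes with a similar ratio are near by construction.

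Ligands and partners of the family were examined as a list of 14 genes, all of which were tested. Of these, 7 rose (50% of the list, against 9.34% of all genes), 1 fell (7.14%, against 13.0%) and 6 were not called, and the median log2 fold change was 0.23, against -0.12 over all genes. The 2 chains of collagen I, a ligand of endosialin, rose most, with ratios of 12.9 for *Col1a1* and 12.1 for *Col1a2*. Both are also on the fibroblast list. The collagen IV genes *Col4a1* and *Col4a2* had ratios of 3.92 and 2.99, and under quantile normalization that of *Col4a1* was 9.58. *Igfbp7* encodes a secreted protein that binds CD93 and endosialin. Its FPKM was 357, 321 and 406 in mural cell samples 1 to 3 and 168, 147 and 115 in fragment samples 1 to 3. All mural cell samples lay above all fragment samples, as for 16.5% of all genes tested (ratio 2.52, adjusted p = 0.002 from limma). *Dag1* (dystroglycan, a partner of CD93 on the cell surface) rose with a ratio of 2.47 and *Gipc1*, which binds the cytoplasmic tail of CD93, with 1.52. The call of *Gipc1* ended without fragment sample 1, 2 or 3 or mural cell sample 3 (adjusted p of 0.051 to 0.108). It also ended when the fit used no trend of the variance on the mean level (adjusted p = 0.053 from limma).

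*Mmrn2* (multimerin 2), a matrix protein of endothelial cells that binds CD93, CLEC14A and endosialin, was the gene of the list that fell. Its FPKM was 41.5, 27.3 and 33.6 in mural cell samples 1 to 3 and 62.1, 66.2 and 55.7 in fragment samples 1 to 3. As for *Clec14a*, mural cell sample 2 was the lowest of all. The summed FPKM of the endothelial markers was 2144, 1777 and 1672 in mural cell samples 1 to 3. Single markers differed in this, with *Cdh5* (104) and *Cldn5* (419) lowest in sample 2 and *Pecam1* (208) and *Ly6c1* (9.93) in sample 3. The part of endothelial cells in the *Mmrn2* and *Clec14a* values was not tested. The ratio of *Mmrn2* was 0.557 and the log2 fold change -0.84 (standard error 0.17, adjusted p = 0.012 from limma). Without fragment sample 1 or 2 the adjusted p was 0.055 and 0.059. The genes that were not called were *Fn1* (fibronectin, ratio 0.921), *Msn* (moesin, 0.914), *Lgals3bp* (0.637), *Rhbdl2* (0.865), a membrane protease that cleaves thrombomodulin, and the heat shock genes *Hspa1a* (0.420) and *Hspa1b* (0.335). The last 2 genes are near-identical copies whose reads may be shared. The ratio of *Hspa1a* was 0.190 without mural cell sample 3, and that of *Hspa1b* was 0.516 without fragment sample 1 and 0.254 without fragment sample 2, where it was called lower (adjusted p = 0.046 from limma).

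The thrombin and protein C pathway, in which thrombomodulin acts, was a list of 18 genes, of which 12 were tested. Here 3 rose (25%, against 9.34% of all genes), 2 fell (16.7%, against 13.0%) and 7 were not called, with a median log2 fold change of 0.02. The thrombin receptor gene *F2r* (PAR1) rose most. Its FPKM was 128, 136 and 111 in mural cell samples 1 to 3 and 29.6, 29.8 and 27.5 in fragment samples 1 to 3, a ratio of 4.31 (log2 fold change 2.07, adjusted p = 9.5e-05 from limma). *Tfpi*, the inhibitor of the tissue factor pathway, had a ratio of 1.69 (adjusted p = 0.011) and *Serpine2*, which encodes the thrombin inhibitor protease nexin-1, of 1.52 (adjusted p = 0.020). The call of *Serpine2* ended without fragment sample 1 or 2 or mural cell sample 2 (adjusted p of 0.051 to 0.089). It also ended when the fit used no trend of the variance (adjusted p = 0.057 from limma). *Tfpi2* was not called, with 1.05 ± 0.30 FPKM in fragments and 1.95 ± 1.81 in mural cells (SD, n = 3 each).

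*Procr*, which encodes the endothelial protein C receptor and is named here after its values were seen, was not called either, with 30.3 ± 3.01 FPKM in fragments and 30.6 ± 1.53 in mural cells (SD, n = 3 each, adjusted p = 0.938 from limma). *Vwf* (von Willebrand factor) reached 91.3, 34.3 and 84.6 FPKM in mural cell samples 1 to 3 and 149, 124 and 149 in fragment samples 1 to 3. All mural cell samples lay below all fragment samples, as for 24.5% of all genes tested. The gene was not called (ratio 0.498, adjusted p = 0.060 from limma). Without mural cell sample 1 or 2 it was called lower (adjusted p = 0.041 and 0.018). The coagulation factor genes *F5* and *F2* were called lower (adjusted p = 0.017 and 0.045) at mean levels of 2.78 and 1.71 FPKM in fragments and 0.338 and 0.239 in mural cells. Every mural cell value of both genes was under 1, so that they passed the filter on low values through the fragments only, which favours a call in this direction. *F2* was listed at 0 in mural cell samples 1 and 2, and when 1 or the other was left out its adjusted p rose to at most 0.0977 and the call ended. When any fragment sample was left out, neither *F5* nor *F2* had an FPKM of 1 or more in 3 samples, so that neither was tested and 0 genes of the list fell. *F2rl3* (PAR4), with a ratio of 0.744, was not called. The gene of protein C itself, *Proc*, was listed at 0 in all 6 samples.

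**Figure D4:**
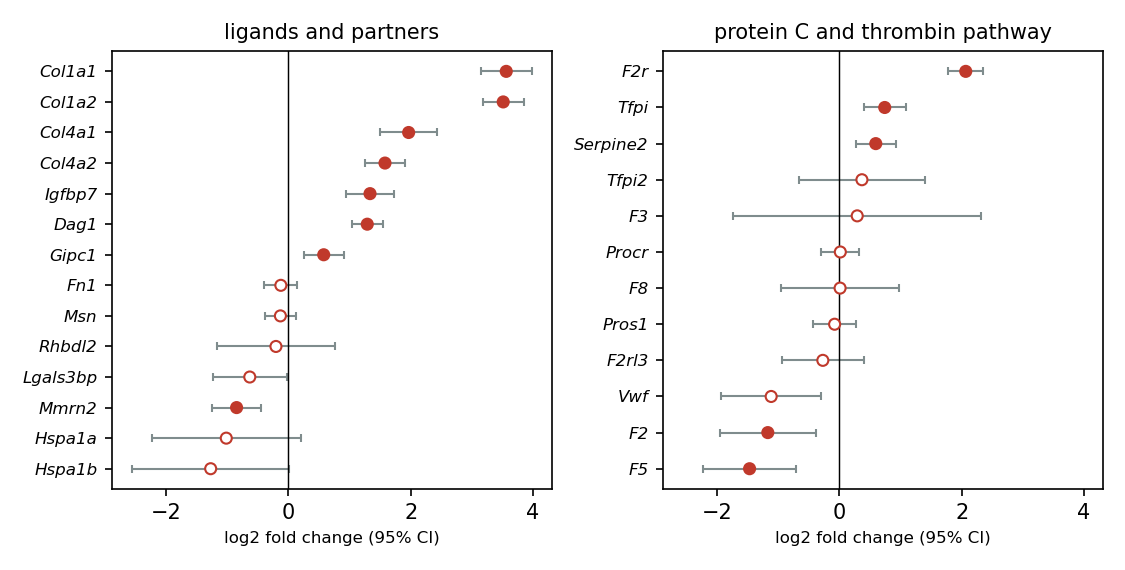
Log2 fold change of FPKM + 1 between mural cells and fragments with 95% intervals from limma, for the tested genes among the ligands and partners (left) and the protein C and thrombin pathway (right). Filled points passed an adjusted p of 0.05. *Col1a1* at 3.56 and *F2r* at 2.07 are the highest of their lists, and *Mmrn2* at -0.84 is the called gene on the left below 0.

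Transcription factors known to act on members of the family in other tissues moved in both directions. KLF2 and KLF4 are known activators of *Thbd* in endothelial cells. Their genes fell in the sorted cells, and their part in the *Thbd* values was not tested. *Klf2* went from 135 ± 23.5 FPKM in fragments to 35.0 ± 17.2 in mural cells, and *Klf4* from 129 ± 20.9 to 28.7 ± 8.32 (SD, n = 3 each), with ratios of 0.259 (adjusted p = 0.005 from limma) and 0.223 (adjusted p = 6.0e-04). *Epas1* (HIF-2 alpha) and *Ets1*, which are known to act on *Cd248*, had ratios of 1.41 (adjusted p = 0.030) and 1.33 (adjusted p = 0.026). Both calls ended when any library other than mural cell sample 3 was left out, with adjusted p of 0.050 to 0.103. They also ended when the fit used no trend of the variance (adjusted p = 0.082 and 0.095 from limma), and that of *Epas1* without a filter (0.055). *Sp1* was not called (ratio 1.23).

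C-type lectin domain genes outside group XIV moved in both directions. Of 46 genes in this list, 26 were tested, 5 rose (19.2%, against 9.34% of all genes), 10 fell (38.5%, against 13.0%) and 11 were not called, and the median log2 fold change was -0.27. Of the 10 that fell, 6 had an FPKM under 1 in every mural cell sample and passed the filter through the fragments only, and of the 5 that rose, *Colec11* passed through the mural cells only, so that the counts and the median partly reflect the filter. Without fragment sample 1, 2 or 3, the number that rose was 3 and the number that fell was 3, where most of the genes that fell no longer passed the filter on low values. Also without mural cell sample 2 or 3 the number that rose was 3. Among those that rose, *Mrc2* (Endo180, a collagen receptor) was at 118, 93.6 and 103 FPKM in mural cell samples 1 to 3 and 16.1, 17.8 and 13.8 in fragment samples 1 to 3, a ratio of 6.59. *Pla2r1*, the phospholipase A2 receptor of the same group as *Mrc2*, had a ratio of 9.22, and *Colec12*, a scavenger receptor with a collagen-like stalk, of 3.12. *Colec11* (adjusted p = 0.049 from limma) and *Pkd1*, named here after its values were seen (adjusted p = 0.034), had ratios of 8.63 and 1.45. The ratio of *Colec11* was 13.9 without fragment sample 3 and 19.5 under quantile normalization, and its call ended without a filter (adjusted p = 0.066). Both calls ended when any 1 of the fragment samples was left out, and that of *Pkd1* also without mural cell sample 2 or 3. The call of *Pkd1* ended as well when the fit used no trend of the variance (adjusted p = 0.059 from limma). *Colec11* was not tested when a mural cell sample was left out. At the other end of the list were the macrophage receptor genes *Mrc1*, *Clec4a2*, *Clec4a3* and *Clec7a*. *Mrc1* fell from 74.2 ± 18.7 to 6.24 ± 2.48 FPKM (SD, n = 3 each), and *Clec4a2* from 11.4 ± 2.31 to 0.263 ± 0.456 FPKM (SD, n = 3 each). *Mrc1* is also on the list of microglia and macrophage markers, all of which fell.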

How the data were processed

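RNA was sequenced from 3 sorted mural cell samples and from 3 samples of microvascular fragments. The deposited values are FPKM, 1 per Ensembl gene and library, which the authors computed with Cufflinks 2.2.1 after alignment to NCBIM37 with TopHat2 2.0.4 and removal of duplicated reads with Picard 1.92. The scaling between libraries is not given in the sources used here. Removal of duplicates can lower the values of highly expressed genes.

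Of 9 identifiers listed more than once, 1 line was kept. Symbols were taken from GENCODE for NCBIM37. Genes were tested in R 4.3.3 by fitting log2(FPKM + 1) with limma 3.58.1, which used a trend of the variance on the mean level, and p-values of the 14801 genes were adjusted after Benjamini-Hochberg. Adding 1 to the FPKM understates the log2 fold changes of low genes. Ratios are of mean FPKM. Single differences were tested with exact permutation tests in SciPy 1.17.1.

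For genes with 1 transcript, 98.3 to 98.6% of low values were whole fragments within 0.1. On protein-coding genes this gave approximately 5.42 to 5.95 M fragments per microvascular library and 1.04 to 2.37 M per mural cell library.

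The members and lists were chosen with earlier results of these data known. The genes named were the members, the list genes given in full for partners and regulators, the 4 highest and 4 lowest of the 2 other lists, the 5 nearest profiles per member (1 of which is not reported here), and 5 markers with the extremes of the 2 marker lists. Alternatives were another pseudocount, filter, scaling and trend, a replicate block, and leaving out each sample.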

Additional observations from a re-analysis of the deposited data

How the results depend on the processing

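The direction of all 4 members and of all 8 within-sample differences was the same under every alternative run, and *Cd248* and *Cd93* kept their side of the threshold. With 1 sample left out at a time, the log2 fold change ranged from 3.10 to 3.36 for *Cd248*, -0.24 to -0.16 for *Cd93*, 0.47 to 0.62 for *Thbd* and -1.20 to -0.80 for *Clec14a*. The difference between *Cd248* and the mean of its relatives ranged from 3.34 to 3.56 over 10 alternatives.

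The calls of *Thbd* and *Clec14a* were lost without single libraries, as given above. When the replicate number was added as a block, the adjusted p of *Thbd* was 0.056 from limma (log2 fold change 0.56, unchanged). The labels do not say that a number marks an animal, and the deviations of same-numbered samples from their group means correlated with r of 0.082, 0.020 and 0.045 over genes, although every sample correlated best with its own number, which is a hint from the data only. With the block, 2 partner genes fell, 3 other C-type lectin genes rose and 1 regulator rose. *Vwf* and *Lgals3bp* were then called lower (adjusted p = 0.028 and 0.034). The calls of *Colec11*, *Pkd1*, *Ets1* and *F2* ended with the block (adjusted p = 0.088, 0.064, 0.054 and 0.090 from limma).

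Leaving out a sample moved the number of all genes called higher from 1383 to between 842 and 1316 and lower from 1927 to between 719 and 2127. For partners it gave 6 to 7 higher and 0 to 1 lower, for the protein C list 2 to 3 and 0 to 2, for other C-type lectin genes 3 to 4 and 3 to 10, and for regulators 0 to 2 and 2. In the protein C list, the number that fell was 1 with a pseudocount of 0.1, 1 among genes above 0 in both groups (an alternative chosen after seeing the data), 0 with a filter at an FPKM of 5 and 0 under quantile normalization. With that filter, which tests fewer genes, 5 other C-type lectin genes fell. The number of regulators that rose was 1 without a filter and 0 without an intensity trend. Quantile normalization moved the median log2 fold change of all genes by 0.12.

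Of the 65 named genes that are not members, 46 were called, and 27 of these were called under every alternative that tested them. Over all genes tested, 9.34% rose and 13.0% fell. Many of the named genes were picked by their values, which raises the number called. Among the named genes, signs reversed only for those that were not called. The log2 fold change of *Rhbdl2* was 0.10 and of *F2rl3* 0.26 under quantile normalization. Without single samples it ranged from -0.429 to 0.170 for *Rhbdl2*, -0.0611 to 0.0746 for *Procr* and -0.162 to 0.0504 for *Pros1*. In mural cells *Thbd* and *Clec14a* rested on 45 to 201 fragments per library, and the spread of *Clec14a* between mural cell samples 2 and 3 exceeded counting error.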
